A study of Mus musculus with 8 samples.

Results

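Apoptosis, the orderly self-destruction of cells, is started either by receptors of the tumour necrosis factor (TNF) family at the cell surface or by permeable mitochondria. Death ligands such as TRAIL and Fas ligand bind receptors that activate the initiator caspase-8, whereas pore formers of the BCL2 family release cytochrome c and so activate caspase-9. Executioner caspases then cut the cell's proteins, while c-FLIP, anti-apoptotic BCL2 proteins and inhibitor of apoptosis proteins (IAPs) hold the process back. Hepatocytes are known to be sensitive to Fas, and caspase-1 and mouse caspase-11 (gene Casp4) act mainly in inflammation.

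The genes described here are the caspases (Casp), the BCL2 family (Bcl2 genes, Bid, Bad, Bak1, Mcl1), the IAPs (Birc, without Birc5), the TNF ligand and receptor superfamilies (Tnfsf, Tnfrsf, Fas, Fasl), the TRAF adaptors (Traf), Cflar and Apaf1. They were chosen by gene symbol, and no measured value entered the rule. The rule found 68 probe sets for 48 genes, of 8252 genes and 12488 probe sets in the table. A further 4 probe sets that carry several symbols were left out. The samples were livers of 8 female Ames dwarf mice (df/df), each on 1 Affymetrix mouse U74Av2 array. All ate standard pelleted food freely, and their age at death was 24 to 26 months. The df/df genotype leaves the pituitary without cells that make growth hormone, prolactin and thyrotropin, and since all 8 livers share genotype, diet and age range, only differences from liver to liver could be described. Livers are numbered 1 to 8 by the replicate number of their samples, and p-values measure only the spread between these samples.

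The upstream sequences of 4 genes are shown first, as examples of the 12 genes with a probe set whose highest signals were in livers 4 and 8, the pattern that recurs below. They were picked to show the 3 genes of the 12 that hold a motif match, with Casp1 as 1 that does not. Each is the 250 bases before the start given in a RefSeq promoter table (GRCm38.p6), 5′ to 3′ on the gene's strand. Capitals mark matches on either strand to an interferon-gamma-activated site, TTCNNNGAA, an interferon-stimulated response element (GAAA, any 2 bases, GAAA) or an NF-kappaB motif (GGG, any 3 bases, TTCC).
Fas (chr19:34290409-34290658, + strand): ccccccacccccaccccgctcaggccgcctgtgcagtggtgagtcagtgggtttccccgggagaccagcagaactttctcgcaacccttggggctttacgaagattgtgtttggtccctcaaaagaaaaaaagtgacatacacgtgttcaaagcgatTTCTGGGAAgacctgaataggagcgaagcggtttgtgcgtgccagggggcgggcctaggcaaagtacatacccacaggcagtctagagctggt
Casp1 (chr9:5298267-5298516, + strand): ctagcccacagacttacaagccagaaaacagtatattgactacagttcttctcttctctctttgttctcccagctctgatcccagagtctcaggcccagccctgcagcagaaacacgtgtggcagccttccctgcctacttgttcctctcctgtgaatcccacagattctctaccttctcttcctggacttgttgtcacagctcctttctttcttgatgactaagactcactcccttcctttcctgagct
Casp4 (chr9:5308599-5308848, + strand): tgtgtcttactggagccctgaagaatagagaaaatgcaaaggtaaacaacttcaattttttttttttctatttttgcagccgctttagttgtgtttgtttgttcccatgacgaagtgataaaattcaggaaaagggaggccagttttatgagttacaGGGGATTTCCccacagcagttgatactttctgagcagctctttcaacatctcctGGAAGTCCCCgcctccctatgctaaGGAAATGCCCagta
Tnfrsf1b (chr4:145246871-145247120, - strand): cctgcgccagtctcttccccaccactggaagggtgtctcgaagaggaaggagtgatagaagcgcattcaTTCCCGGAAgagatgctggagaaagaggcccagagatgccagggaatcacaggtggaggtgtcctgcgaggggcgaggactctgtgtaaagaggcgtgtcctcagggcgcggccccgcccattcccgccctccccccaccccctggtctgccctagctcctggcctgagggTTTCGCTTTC

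The Fas sequence holds 1 interferon-gamma-activated site, from base -93 to -85 before the start. The Casp4 sequence holds 3 NF-kappaB matches, which begin at -93, -39 and -14. The Tnfrsf1b sequence holds an interferon-gamma-activated site at -181 and an interferon-stimulated response element at -10, and the marked matches do not overlap. The Casp1 sequence holds no match, although Casp1 (chr9:5298517-5307281) and Casp4 (chr9:5308849-5336791) are neighbours. Of 27025 such sequences in the table, 7.18% held an interferon-gamma-activated site, 3.04% an interferon-stimulated response element and 4.6% an NF-kappaB match. Among the 43 of the 48 genes with a sequence, 5, 2 and 3 did. At least 1 of the motifs was found in 3 of the 11 genes of this pattern that had a sequence, in 9 of the 43 and in 14% of all, and Tnfsf10, Birc3, Bid and Bak1 had none. A match describes letters in these windows only.

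Livers 4 and 8 differed from the others in markers of other cell types. The summed signal of 9 macrophage and Kupffer cell markers was 15690 in liver 4 and 10870 in liver 8, against 3402 to 6405 in the other 6, and 8 of the 9 were highest in liver 4. The sum of 3 NK cell markers was 296.1 and 189.5 against 58.7 to 105.5. Of these, Klrk1 exceeded 69.7, a level explained below, in liver 4 alone (107.7), and Ncr1 in no liver (at most 35.5). The sum of 4 stellate cell and fibroblast markers was 1604 and 1154 against 499 to 1070.4. Col1a1 and Col3a1 were highest in livers 4 and 8. Des was lowest in liver 4 (139.4), and Acta2 in liver 8 (156.4) lay below livers 3 and 7 (173.8 and 160.7). The 7 neutrophil markers summed to 1082 and 1251 against 731 to 1001, with S100a8, S100a9 and Ngp highest in liver 4 but Camp lowest there (113). The sum of 7 T cell markers was 760.5 and 512 against 285 to 542, with Cd3d, Cd3g, Cd8a and Cd247 at or below 69.7 in every liver. Sums of B cell, endothelial, cholangiocyte and hepatocyte markers in livers 4 and 8 lay within the range of the others, and Alb, which marks hepatocytes, read 25309.5 to 37059. In whole liver, more cells of a type and more RNA per cell cannot be told apart, and the part of these cells in the results was not tested. The median signal of the arrays ran from 156 (liver 3) to 181 (liver 8), with 178 in liver 4.

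The ligands among the 68 probe sets were at low signals, whereas most of the intracellular machinery was not. A ligand probe set left out for its several symbols (Tnfsfm13 and Tnfsf12) read 341.2 to 551.2. Signals are linear intensities and the table has no detection calls, so they were set against the Y-linked genes Kdm5d and Uty, which female mice lack and which read at most 69.7. That level is 1 value, Uty in liver 5, and without liver 5 it would be 36.6. Of the 68 probe sets, 40 (58.8%) were above that level in all 8 livers, 15 in some and 13 in none. Over all 12422 non-control probe sets, 56% were above it in all 8 and 23.7% in none. At the level of 36.6, tried after seeing the data, 50 of the 68 (73.5%) were above it in all 8 livers and 10 in none, beside 64.7% and 13.3%. At 69.7, none of the 6 ligand probe sets and none of the 3 of inflammatory caspases was above it in every liver, although Casp1 and Casp4 were above 36.6 in all 8. The count at 69.7 was 7 of 16 for receptors, 6 of 9 for adaptors, 9 of 11 for the initiator arm (initiator caspases, Apaf1, Casp8ap2 and Cflar), 6 of 9 and 7 of 8 for anti-apoptotic and pro-apoptotic BCL2 family members and 3 of 4 for IAPs. Tnfsf4, the OX40 ligand, and 1 of 2 probe sets of Tnfrsf9, the T cell receptor 4-1BB, stayed below the floor of 11.2, the 10th percentile of all values, in every liver, as did 2.57% of all non-control probe sets.

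**Figure D1:**
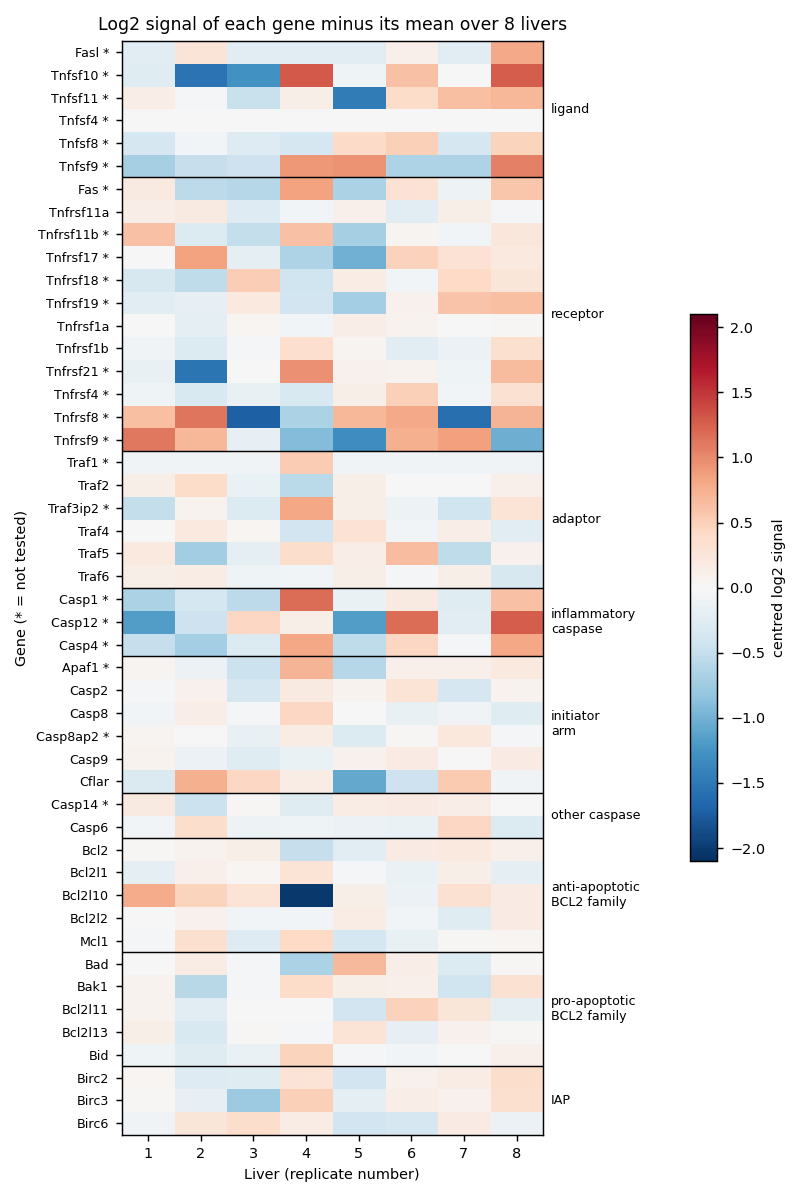
Heat map of the log2 signal of each of the 48 genes minus its mean over the 8 livers (colour), with livers as columns and genes as rows grouped by role, each gene shown by its probe set with the highest mean signal. Tnfsf10, Fas, Tnfrsf21, Casp1 and Casp4 are red in livers 4 and 8, and Bcl2l10 is deep blue in liver 4.

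Tests were limited to probe sets with a mean log2 signal above that of the median non-control probe set, a signal of 162. This kept 31 of the 68, for 25 genes. The nearest below the limit were Casp8ap2, Bcl2l10 and Tnfrsf11b (geometric means of 161, 152 and 151), and the nearest above it Bcl2l11, Tnfrsf11a and another Bcl2l10 probe set (172, 173 and 175). The tested 31 include no ligand and no inflammatory caspase. Of the other 37, 36 were below the limit, and 1 of the 2 Fas probe sets is one of the array's control probe sets, which were kept out.

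Most of the 31 ranged little between livers. Their median ratio of highest to lowest signal was 1.67, beside 1.63 over all 6211 tested probe sets, and 7 of 31 (22.6%) ranged over 2-fold, beside 23.4%. Of the 36 below the limit, 26 (72.2%) did, beside 71.8%. Each variance was then set against the typical variance at that signal (typical-variance test, one-sided, Benjamini-Hochberg adjustment), so a call means that a probe set varied more than most of like signal. Of the 31, 2 passed, Cflar and Bcl2l10, which is 6.45% against 11.3% of all tested probe sets. In limma's test, which sets each variance against the spread of all variances, 0 of 31 passed, beside 0% of all. At an unadjusted p under 0.05, limma's test had 1 of 31 (6.84% of all) and the typical-variance test 5 of 31 (18.4% of all).

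Cflar encodes c-FLIP, the caspase-8 relative that blocks death receptor signalling. Cflar read 164, 339.9, 276, 225, 96.3, 151, 298 and 194 in livers 1 to 8. Livers 2, 7 and 3 were high and liver 5 low, and livers 4 and 8 lay between. The SD of its log2 signal was 0.60 against a typical 0.34 (adjusted p = 0.0265, and 0.869 in limma's test). The call was lost without liver 5 (SD 0.45, adjusted p = 0.325), without liver 2 (0.101), without liver 7 (0.0903) and after centring within arrays 1 to 4 and 5 to 8 (0.0816).

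Bcl2l10, a BCL2 relative, owed its call to 1 liver, on a probe set that may share sequence with other genes. From liver 1 to 8, Bcl2l10 signals were 301, 242, 214, 42.9, 190.4, 161, 219 and 197. Liver 4 was far below the other 7. The SD was 0.86 against a typical 0.36 (adjusted p = 3.41e-05), and without liver 4 the adjusted p was 1. The other Bcl2l10 probe set was lowest in liver 7 (86.4), next lowest in liver 4 (104), and was not tested.

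**Figure D2:**
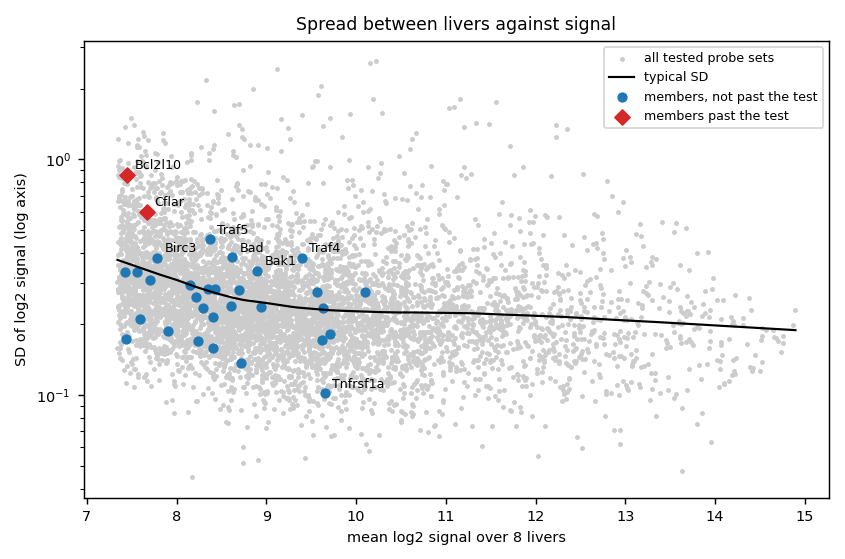
SD of log2 signal over 8 livers (vertical, log axis) against mean log2 signal (horizontal) for the 6211 tested probe sets (grey), with the typical SD as a line, the 31 member probe sets as blue points and those past the typical-variance test as red diamonds. Bcl2l10 (0.86) and Cflar (0.60) lie above the line, and Tnfrsf1a (0.10) is the lowest blue point.

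Of the ligands, Tnfsf10, which encodes TRAIL, read 121 in liver 4, 120.2 in liver 8 and 16.9 to 75.5 in the others. Tnfsf9, the ligand of 4-1BB, fell into separate sets of livers, with 107, 109.6 and 119 in livers 4, 5 and 8 and 35.3 to 42.4 in the other 5. Both had livers below the Y-linked level of 69.7. Both were also below 36.6 in some, Tnfsf10 in livers 2 and 3 (16.9 and 20.5) and Tnfsf9 in livers 1 and 6 (35.3 and 36.5). Fasl (Fas ligand), Tnfsf8 (the CD30 ligand), Tnfsf11 (RANKL) and Tnfsf4 stayed below 69.7 throughout, and all but Tnfsf11 below 36.6, at most 22.9, 20.1, 50.2 and 6.9.

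Fas, the receptor for Fas ligand, was highest in liver 4 and next in liver 8 on both of its probe sets. The first may share sequence with other genes, and the other is one of the array's control probe sets. The signals of the first in livers 1 to 8 were 78.8, 56.1, 65.2, 331, 63.8, 70.6, 60.5 and 156. In livers 1 to 8, the control probe set was at 191, 114, 111, 302, 105, 206, 155 and 252. On neither did these livers overlap with the other 6, and the highest was 2.86 times the lowest on the control probe set. On the first, 4 of the 8 livers were below the Y-linked level of 69.7, so no ratio is given. Tnfrsf21, death receptor 6, followed the same order, with 243 in liver 4, 198 in liver 8 and 43 to 133 elsewhere.

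Both TNF receptors were tested. Tnfrsf1a, TNF receptor 1, which carries a death domain, had the smallest range of the 31 probe sets (1.27-fold, 806 ± 55.3, SD, n = 8). Tnfrsf1a read 796, 697, 828, 771, 883, 849, 808 and 814 in livers 1 to 8. No liver stood out, although its further probe set, which may share sequence with other genes, was highest in liver 2 (299, against 146 to 218). Tnfrsf1b, TNF receptor 2, which lacks a death domain, was highest in livers 4 and 8. From liver 1 to 8, Tnfrsf1b signals were 369, 319.6, 384, 498, 405, 334, 361 and 494. The other 6 livers did not reach either of them.

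Tnfrsf11a, which encodes RANK, also ranged little (1.37-fold). Tnfrsf11b, the decoy receptor osteoprotegerin, was highest in livers 1 and 4 (232 and 232) and lowest in liver 5 (93.4). Receptors of lymphocytes followed other orders: Tnfrsf8, or CD30, read 157 in liver 2 and 22 in liver 3, Tnfrsf9 17.6 to 93.4 on its brighter probe set with liver 1 highest, Tnfrsf17, or BCMA, 46.9 to 170.2 with liver 2 highest, and Tnfrsf18, or GITR, 103 to 213 with liver 3 highest. Tnfrsf4, or OX40, stayed below the Y-linked level (at most 33.4), and Tnfrsf19 read 37.1 to 93.8.

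Among the adaptors, Traf2, which links TNF receptors to NF-kappaB and JNK, was lowest in liver 4. The signals of Traf2 in livers 1 to 8 were 825, 981, 682, 510.0, 819, 749, 749.6 and 809.9. Liver 4 did not overlap with the others. Traf5 read 199.7 in its lowest liver, 2, and 515 in its highest, 6, a ratio of 2.58, and missed the typical-variance test (adjusted p = 0.0591). It passed without liver 3, 5 or 8 (0.0448, 0.0246 and 0.047), without livers 4 and 8 together (0.0409) and when shared-sequence probe sets were left out (0.046).

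The 2 Traf4 probe sets did not follow each other. The brighter one was lowest in liver 4 (597) and highest in liver 5 (974), and the other was lowest in liver 2 (415) and highest in liver 1 (896). The latter missed the typical-variance test (SD 0.38, adjusted p = 0.0736) and passed without liver 4 (0.0239), without liver 5 (0.0482) and without livers 4 and 8 together (0.0165). Traf6, an adaptor of Toll-like receptors, ranged 1.41-fold on its brightest probe set. Traf3ip2, which encodes the IL-17 receptor adaptor Act1, read 134 in liver 4, 93.5 in liver 8 and 54 to 82.7 elsewhere. Traf1 exceeded the floor in liver 4 alone (17), but there too stayed below the Y-linked levels of 69.7 and 36.6.

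The inflammatory caspases Casp1 and Casp4 were low and ordered like Fas. Casp1 processes pro-IL-1beta. In livers 1 to 8, Casp1 was at 51.5, 63.3, 55.3, 184, 73.8, 92.3, 68.3 and 124. Livers 4 and 8 lay above the other 6. Casp4, the sensor of cytosolic lipopolysaccharide, read 129 in liver 4, 128 in liver 8 and 44.5 to 98.4 elsewhere, again without overlap. Casp12 read at most 61.3, below 69.7 but not below 36.6 in every liver.

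The tested probe sets of the apoptotic caspases all ranged under 2-fold. Casp8, the initiator caspase of death receptors, was highest in liver 4. Casp8 read 186, 212, 189.7, 260.0, 193, 173, 182 and 161 in livers 1 to 8. Its range was 1.62-fold, and liver 8 was the lowest, so livers 4 and 8 were at opposite ends. Casp9, the caspase of the apoptosome, ranged 1.35-fold on its brightest probe set. From liver 1 to 8, Casp9 signals were 359, 311, 284, 309, 359.8, 384, 343 and 382. Its other tested probe sets ranged 1.67-fold and 1.42-fold. Apaf1, the scaffold of the apoptosome, was highest in livers 4 and 8 but was not tested. The signals of Apaf1 in livers 1 to 8 were 87.1, 77.2, 61, 138, 55.1, 89.7, 89.8 and 96.1. Liver 8 was only slightly above livers 6 and 7. The brighter Casp2 probe set ranged 1.55-fold and the executioner Casp6 1.66-fold, with livers 7 and 2 highest. Casp14, a caspase of keratinocytes, read 74.5 to 116, and Casp8ap2, a caspase-8 binding protein, ranged 1.43-fold on its brighter probe set.

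Of the anti-apoptotic BCL2 family members, Bcl2l2 and Bcl2l1 differed little between livers, unlike Bcl2l10. Bcl2l2 (BCL-W) ranged 1.33-fold and Bcl2l1 (BCL-XL) 1.39-fold. In livers 1 to 8, Bcl2l1 was at 695, 855, 816, 959, 771, 717, 860.1 and 688. Its highest liver was 4 and its lowest 8. Mcl1, which hepatocytes need for survival, was high in livers 4 and 2. Mcl1 read 1063, 1389.9, 912, 1466, 852, 990.3, 1123 and 1136 in livers 1 to 8. Its range was 1.72-fold. Bcl2 was lowest in liver 4 on its brightest probe set. From liver 1 to 8, Bcl2 signals were 499.8, 522, 536, 352, 424, 557, 567 and 531. The other 7 livers did not reach down to it. Another Bcl2 probe set, which may share sequence with other genes, was lowest in liver 5 (77), with 108.8 in liver 4. A further one read at most 35.2, with 28.5 in liver 4.

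The pro-apoptotic Bid, which caspase-8 cleaves, was highest in livers 4 and 8. The signals of Bid in livers 1 to 8 were 321, 286, 309.8, 469.5, 332, 326, 336 and 367. The other 6 lay close together and below both. Bak1, a pore former of the outer mitochondrial membrane, had the same 2 livers highest. In livers 1 to 8, Bak1 was at 503, 319.5, 469, 625, 521, 513, 359 and 596. Livers 2 and 7 were low. Bad, a BH3-only protein, ranged 2.53-fold on its brighter probe set, which may share sequence with other genes. It was lowest there in liver 4 (249) and highest in liver 5 (631). On its other probe set liver 5 was also highest (178) but liver 4 was next (135). Bcl2l11, or BIM, ranged 1.85-fold with liver 6 highest, and Bcl2l13 1.52-fold.

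The IAP genes Birc2 and Birc3, which encode cIAP1 and cIAP2 and are neighbours on chromosome 9, were both highest in livers 4 and 8. Birc2 read 428, 343, 349, 505, 314, 441, 463 and 534 in livers 1 to 8. From liver 1 to 8, Birc3 signals were 226, 196, 131, 311, 194, 244, 235 and 279.7. In neither gene did the other 6 livers reach these values. Birc3 ranged 2.38-fold, more than Birc2 (1.7-fold), and a second Birc2 probe set was lowest in liver 5 (61.4) and did not have livers 4 and 8 highest. Birc6 was highest in liver 3 (443).

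**Figure D3:**
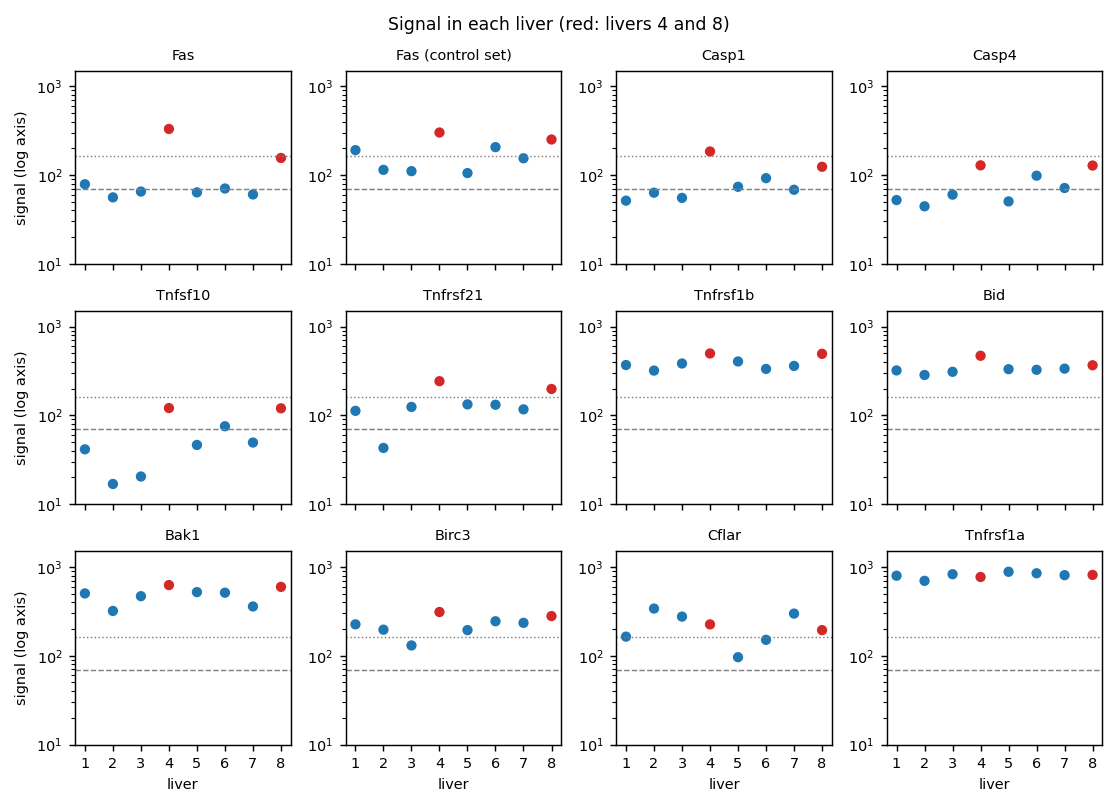
Signal (vertical, log axis) of 12 probe sets in each of the 8 livers (horizontal), with livers 4 and 8 in red, the highest Y-linked signal of 69.7 as a dashed line and the test limit of 162 as a dotted line. Livers 4 and 8 lie above the other 6 in 10 panels, and in those of Cflar and Tnfrsf1a they do not.

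Livers 4 and 8 held the highest signals together in 13 of the 68 probe sets. Among the 31 tested this was so in 5 (16.1%), of Bid, Bak1, Birc2, Birc3 and Tnfrsf1b, beside 9.32% of all tested probe sets. Among the 36 non-control probe sets below the limit it was so in 7 (19.4%), of Fas, Tnfrsf21, Tnfsf10, Casp1, Casp4, Apaf1 and Traf3ip2, beside 9.29%. Liver 4 was highest in 8 of the 31 (25.8%, beside 17.2%) and lowest in 5 (16.1%, beside 22.6%). Liver 2 was highest in 6 and lowest in 7, beside 14.2% and 12.5% of all tested probe sets. For liver 5 these counts were 5 and 6, beside 18.8% and 16.1%. The median centred log2 signal of the 31 was between -0.10 (liver 3) and 0.14 (liver 2), with -0.03 in liver 4 and 0.07 in liver 8. No test of these counts was made.

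Death receptors and inflammatory caspases include known interferon targets, so each probe set was correlated with an interferon score. This is the mean centred log2 signal of 19 interferon-induced genes, none of them among the 48. Their list was chosen also because earlier results of these data showed that it varied most. The score was 1.97 in liver 4, 1.36 in liver 8, 0.20 in liver 1, 0.08 in liver 6 and -0.65 to -1.22 in the rest. Of 6190 tested probe sets outside the score, 180 (2.91%) passed (Pearson's r, exact two-sided permutation test, Benjamini-Hochberg adjustment), and 0 of the 31 did. The 31 include no inflammatory caspase and no Fas probe set. At an unadjusted p under 0.05 the count was 6 of 31, beside 17.9% of all. Livers 4 and 8 had the highest scores, array medians and macrophage marker sums alike, so the 3 cannot be told apart.

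Traf4 on its brighter probe set came closest (r = -0.905, exact permutation p = 0.00258, adjusted p = 0.0665, rho = -0.762 with exact permutation p = 0.0368). With arrays scaled to a common median it passed (r = -0.959, adjusted p = 0.0352), whereas its other probe set had an r of 0.387. Bid followed (r = 0.863, exact permutation p = 0.00407, adjusted p = 0.0822, rho = 0.738 with exact permutation p = 0.0458), and then Birc3 (r = 0.842, exact permutation p = 0.00625, adjusted p = 0.096, rho = 0.833 with exact permutation p = 0.0154). For Traf4, Bid and Birc3, r without livers 4 and 8, which were farthest from the median score, was -0.569, 0.394 and 0.724, and after centring within arrays 1 to 4 and 5 to 8 it was -0.92, 0.863 and 0.876. None passed on those 6 livers (adjusted p = 0.819, 0.902 and 0.712 from the exact permutation test). Nor did any of all 6190 probe sets, so with so few livers this test could not separate these genes from others. The r values were not tested against each other. Tnfrsf1b had an r of 0.774 with all livers and -0.146 without livers 4 and 8, so its relation rested on them.

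Fas had the highest r of the 48 genes, although not all of these r used the same score. Its control probe set, taken into the test after its values were seen, passed (r = 0.935, exact permutation p = 0.00057, adjusted p = 0.0333, rho = 0.833 with exact permutation p = 0.0154, over 6191 probe sets), and r was 0.86 without livers 4 and 8. Its other probe set may share sequence with other genes. In a test over 12073 probe sets with no limit on signal it did not pass (r = 0.949, exact permutation p = 0.000546, adjusted p = 0.0519, rho = 0.857 with exact permutation p = 0.0107), with an r of 0.803 without livers 4 and 8. For that test the score was rebuilt and also took in interferon-induced genes below the signal limit. The rho values and the r without livers 4 and 8 used the score of 19 genes. In that wider test Casp1, Tnfsf10, Apaf1 and Casp4 had r of 0.864, 0.855, 0.823 and 0.817, with adjusted p from the exact permutation test of 0.159, 0.159, 0.172 and 0.194. With the score of 19 genes and without livers 4 and 8, their r was 0.235, 0.711, 0.563 and 0.373. Their r with and without these livers thus rest on different scores.

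**Figure D4:**
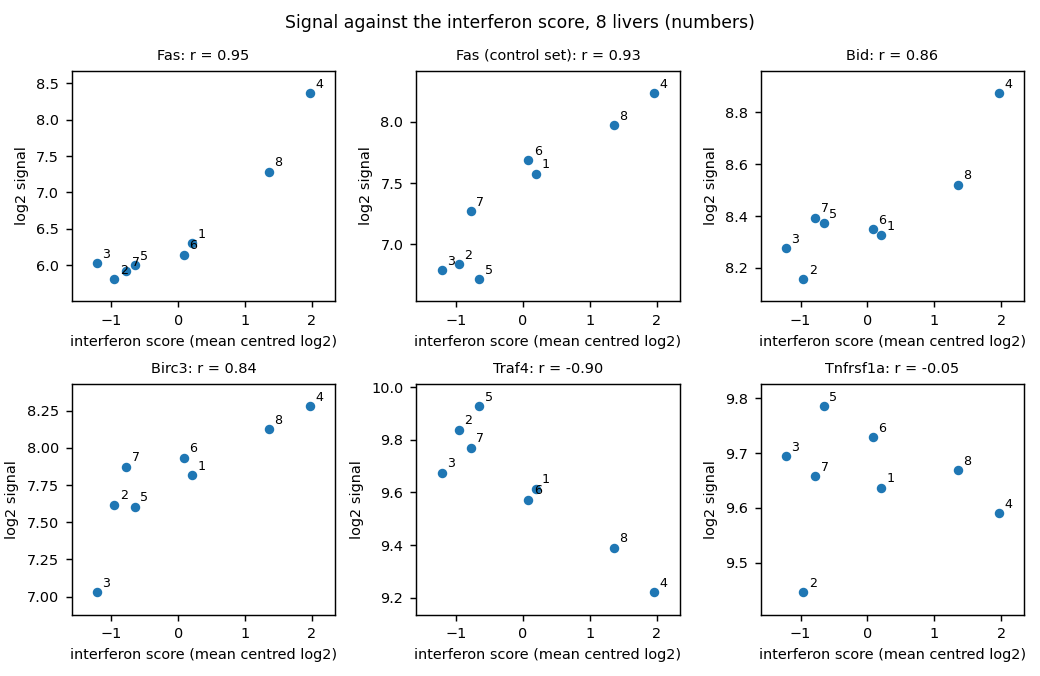
Log2 signal (vertical) of 6 probe sets against the interferon score (horizontal, mean centred log2 signal of 19 genes), 1 numbered point per liver. Both Fas probe sets (r = 0.949 and 0.935), Bid and Birc3 are higher at higher scores, the brighter Traf4 probe set is lower, and Tnfrsf1a has an r of -0.0509. The r of 0.949 is not for the score plotted. It used a wider score that also took in interferon-induced genes below the signal limit.

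Of 64 further genes of these pathways, 46 were in the table and 29 were tested. The typical-variance test called 5 of the 29, beside 11.3% of all tested probe sets, and limma's test 0, beside 0%. Ltb, lymphotoxin-beta, read 629 in liver 4, 421 in liver 8 and 124 to 255 elsewhere. Some tested genes that were not called, Il18 and Relb among them, also had livers 4 and 8 highest, as had 9.32% of all tested probe sets. The other 4 called genes followed other orders. Tradd, the adaptor of TNF receptor 1, read 618 in liver 8 and 2116 in liver 3, on a probe set that may share sequence with other genes. Lta, lymphotoxin-alpha, was lowest in liver 4 (269.6, against 391 to 697). Cycs, cytochrome c, and Bik, a BH3-only gene, were both lowest in liver 5 (272 against 463 to 786, and 105 against 116 to 302). Cflar was lowest there too, as were 16.1% of all tested probe sets. Ikbkg, which encodes the NF-kappaB regulator NEMO, was the 1 gene of the 29 past the interferon test, beside 2.91% of all (r = 0.908, exact permutation p = 0.00107, adjusted p = 0.0428, rho = 0.976 with exact permutation p = 0.000397), on a probe set that may share sequence with other genes, and its r was 0.825 without livers 4 and 8. The 3 partners with the highest signals, the mitochondrial Htra2 and Aifm1 and the NF-kappaB subunit Rela, ranged 1.5-fold, 1.29-fold and 1.39-fold. The Htra2 probe set may also share sequence with other genes.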

How the data were processed

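Total liver RNA of 8 mice was hybridised to Affymetrix mouse U74Av2 arrays, per the labels. The authors deposited for each array a linear intensity of every probe set. For image software, detection calls and scaling target, nothing is stated in the sources used. Trimmed means agreed between arrays to 0.00896%, so the deposited intensities were taken as already scaled and used as they stand, which makes each signal relative to the others on its array. Genes were named from the platform annotation where a probe set had 1 symbol, and all 68 symbols were found in the RefSeq gene table. Signals below 11.2 were set to it before log2 transformation. Tests left out 66 control probe sets.

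Tests ran over all 6211 probe sets above the limit. Typical variance came from a loess curve (span 0.3) on log variance and the ratio was read as chi-square (7 degrees of freedom). The stricter test used limma 3.58.1 in R 4.3.3 with a trended, robust prior. Permutations covered all 40320 orders of the livers, in Python 3.11.15. Scripts were tested on simulated data. The members, lists and tests were chosen with earlier results of these data known. Values in all livers were given for members past a test and for core genes, and a gene was represented by its probe set with the highest mean signal. Alternatives were other scalings, floors, filters and probe set types, leaving out livers, and centring within arrays 1 to 4 and 5 to 8, whose spike-in controls differed (mean log2 8.47 to 8.67 and 7.91 to 8.28) although the labels name no batch. The number of arrays limits the precision.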

Additional observations from a re-analysis of the deposited data

Results flagged for a closer look

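In 3 of the 57 probe sets with all 8 livers above the floor, 1 liver lay far from the other 7 by Dixon's ratio, the gap to the nearest liver over the whole range, both taken on log2 signals. Chance flags about 1 in 20 groups, which is a nominal rate. The share flagged over all probe sets of these arrays is not given here, so the count of 3 is not read as unusual or usual. Bcl2l10 had 42.9 in liver 4, with 161 as the nearest value (ratio 0.678). The shared-sequence Birc2 probe set had 61.4 in liver 5, with 117 as the nearest (ratio 0.592). Tnfrsf21 had 43.0 in liver 2, with 113 as the nearest (ratio 0.556). The cause was not tested.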

How the results depend on the processing

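The count of the 31 past the typical-variance test was 2, and it was 1 after centring within arrays 1 to 4 and 5 to 8 (Bcl2l10) and 1 to 3 when each liver was left out in turn, with 1 without liver 2 and without liver 7 (Bcl2l10 in both). With no limit on signal it was 3, with Tnfrsf8 added. The limma count was 0 under every alternative run, while over all probe sets it was 0 as reported, 10 with median scaling, 21 without shared-sequence probe sets and 2 after centring. The count past the interferon test was 0, but 1 with median scaling (Traf4) and 1 with the Fas control probe set tested, an alternative chosen after seeing the data. Over all probe sets that count was 180 as reported, 273 with median scaling, 114 with no limit on signal, 9 with Spearman's rho, 0 after centring, 0 without livers 4 and 8, 74 without liver 5, 51 without liver 7 and 0 without any 1 of livers 1, 2, 3, 4, 6 and 8, so few livers limit what this test can call. The r of Tnfrsf1b became -0.146 without livers 4 and 8 (adjusted p = 0.968 from the exact permutation test). Of the 31, the counts of the order of livers stayed within 1.5 times under both scalings, but over all tested probe sets the share with livers 4 and 8 highest was 9.32% as reported, 5.57% with median scaling and 8.47% with quantile normalization. Without shared-sequence probe sets the 2 called were Cflar and Traf5, since Bcl2l10 was not tested then. The cause of these changes was not tested. No paired analysis was possible because all samples belong to 1 group.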

Other observations

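The probe sets left out because they carry several symbols include 3 for the anti-apoptotic Bcl2a1 genes, and all 3 had livers 4 and 8 highest, 1 of them at no more than 16.2. The brightest, which also carries Mthfs, read 1044.5 in liver 4, 640.1 in liver 8 and 205.5 to 325 in the other 6, and another 738, 464 and 65.6 to 191. The remaining one, with the ligand symbols Tnfsfm13 and Tnfsf12, read 341.2 (liver 7) to 551.2 (liver 5). These values cannot be assigned to 1 gene and were not tested here.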
